A study of Homo sapiens with 6 samples.

Results

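The genes described here carry the DNA replication checkpoint and protect stalled replication forks. They are ATM, ATR, ATRIP, CHEK1, CHEK2, CLSPN, TOPBP1, TIMELESS, TIPIN and RAD9A, taken by symbol alone from the deposited table of normalized counts, which lists 23228 gene names. All 10 were found under these symbols and all 10 passed the filter on low values. The cells were SaOS-2, an established human osteosarcoma line that has no functional RB or p53 by the study's account, carrying a tetracycline-inducible p21 vector. Untreated cells form the p21 OFF group (3 libraries). Cells given 1 µg/ml doxycycline for 24 h form the p21 ON group (3 libraries). Both groups carry the vector, and a group with doxycycline but without p21 was not analysed here, so the drug and p21 cannot be told apart. The labels do not say whether replicates were separate cultures, and the p-values therefore measure only the spread between these libraries.

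ATR and ATM are large kinases of the PI3-kinase-like family. ATR, held to single-stranded DNA by its partner ATRIP, answers stalled forks, and ATM answers double-strand breaks. At a stalled fork the 9-1-1 clamp, of which RAD9A is a subunit, recruits TOPBP1, which switches ATR on. Claspin (CLSPN) and the TIMELESS-TIPIN pair travel with the fork and carry the signal to CHK1, the kinase made from CHEK1. ATM passes its signal to CHK2, made from CHEK2. Both kinases restrain the CDC25 phosphatases that start S phase and mitosis. p21, made from CDKN1A, inhibits cyclin-dependent kinases and stops the cycle. Many replication genes are transcribed under E2F factors, and many genes for mitosis, expressed later in the cycle, through CHR and CCAAT elements.

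CDKN1A was measured first as a check of the labels. Its normalized counts were 1257, 1187 and 1355 in p21 OFF and 40470, 43863 and 46739 in p21 ON, a 34.5-fold higher mean (limma, log2 fold change 5.11, SE 0.067, adjusted p = 1.12e-19). The libraries held 12795490 to 21975045 reads on genes, and p21 OFF replicate 1 was the shallowest. The osteoblast markers ALPL, SPARC, SP7, RUNX2 and COL1A1 were present at 3028 normalized counts or more in every library, whereas COL1A2, SPP1 and BGLAP were at 4.87 or less. Of the 6 markers of other cell types, EPCAM reached 292 to 374 and the others stayed at 16.3 or less. No marker that could be tested passed the test in either direction.

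p21 OFF replicate 1 stood apart in the genes with long transcripts, and this touches several of the 10 genes. Among the 1180 tested genes with a canonical transcript of at least 8 kb, the median deviation from the gene's own mean (log2) was -0.22 in p21 OFF replicate 1, -0.014 and 0.010 in the other p21 OFF libraries, and 0.124, 0.048 and 0.066 in p21 ON. Among transcripts under 2 kb the order was turned, with 0.160 in p21 OFF replicate 1 and -0.104 in p21 ON replicate 1. The values of ATM, ATR and CLSPN, which have transcripts of 8.16 to 12.92 kb, are therefore also given with this trend taken out of each library and without p21 OFF replicate 1. Those of TIPIN, at 1.73 kb, are given in the same way. What produced the trend was not tested.

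The promoters of CLSPN, TOPBP1 and TIPIN are shown because they hold the letters of an E2F site, and that of CHEK2 because its transcript fell most of the 10 and it holds 3 CCAAT boxes. They are RefSeq start sites on GRCh38.p14, 250 bases before the start and 20 after it, 5′ to 3′ on the gene's own strand. Capitals mark the E2F letters (TTTCCCGC, TTTCGCGC, TTTGCCGC or TTTGGCGC) and CCAAT, each read on both strands, so that CCAAT on the other strand appears as ATTGG and TTTCCCGC as GCGGGAAA. The sequences cover chr1:35769959-35770228 (CLSPN), chr3:133661922-133662191 (TOPBP1), chr15:66356666-66356935 (TIPIN) and chr22:28741801-28742070 (CHEK2), all on the minus strand.
CLSPN: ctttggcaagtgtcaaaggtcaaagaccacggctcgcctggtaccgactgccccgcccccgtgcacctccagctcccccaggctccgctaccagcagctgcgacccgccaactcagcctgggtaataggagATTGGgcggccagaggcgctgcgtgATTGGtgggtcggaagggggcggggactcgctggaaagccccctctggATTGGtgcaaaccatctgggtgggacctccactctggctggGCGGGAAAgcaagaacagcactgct
TOPBP1: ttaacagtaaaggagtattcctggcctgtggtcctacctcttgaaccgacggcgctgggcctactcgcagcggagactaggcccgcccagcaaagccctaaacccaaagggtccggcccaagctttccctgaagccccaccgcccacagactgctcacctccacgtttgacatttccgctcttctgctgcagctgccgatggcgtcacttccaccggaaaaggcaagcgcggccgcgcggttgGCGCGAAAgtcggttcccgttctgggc
TIPIN: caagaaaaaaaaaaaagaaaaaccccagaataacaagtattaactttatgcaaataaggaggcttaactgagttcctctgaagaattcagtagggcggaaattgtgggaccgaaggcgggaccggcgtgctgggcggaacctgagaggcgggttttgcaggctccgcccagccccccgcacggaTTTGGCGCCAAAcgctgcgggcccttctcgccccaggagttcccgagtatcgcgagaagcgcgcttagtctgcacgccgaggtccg
CHEK2: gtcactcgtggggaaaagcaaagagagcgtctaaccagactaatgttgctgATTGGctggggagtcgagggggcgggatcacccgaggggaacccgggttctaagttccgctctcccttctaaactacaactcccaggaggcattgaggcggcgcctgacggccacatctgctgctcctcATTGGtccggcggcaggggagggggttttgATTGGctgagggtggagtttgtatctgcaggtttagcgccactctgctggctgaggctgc

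The CLSPN window held an E2F match that began 5 bases before the start, and 3 CCAAT boxes at -119, -94 and -46. The TOPBP1 window held an E2F match at -7. In the TIPIN window printed here, matches on both strands, at -66 and -62, overlapped as 1 palindrome. The other window listed for TIPIN held no E2F match and a CCAAT box at -91. The CHEK2 window held no E2F match but 3 CCAAT boxes, at -199, -70 and -40. RefSeq listed 15 windows of 300 bases for the 10 genes, and E2F letters were found in these windows of CLSPN, TOPBP1 and TIPIN only. Over all 35116 RefSeq promoter windows 3.31% held an E2F match, 3.26% held CCAAT at least 3 times and 15.2% held the CHR letters TTTGAA. The CHR letters occurred once among the 15 windows, in ATM at -20. CHEK1, not printed, also had 3 CCAAT boxes, in 1 of its 3 listed windows, and the ATR window had none of the motifs. Fewer CCAAT boxes were found in windows of ATRIP, RAD9A, ATM and TIMELESS, and none in that of TOPBP1. A match is a description of the letters and shows no binding.

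With p21 ON the CHEK2 transcript fell by 51.2% of the p21 OFF mean. The CHEK1 transcript fell by 25.6%, TIMELESS fell by 18.6%, TOPBP1 fell by 13.0% and ATM rose by 19.3%. The CHEK2, CHEK1 and TIMELESS calls held without any 1 library, whereas those of TOPBP1 and ATM did not. By limma's test 1 of the 10 genes was called higher and 4 were called lower, and the other 5 were not called. Without p21 OFF replicate 1 these counts were 0 higher and 5 lower, against 1381 and 1617 of all 13255 genes tested. With all libraries, 10.5% of the 13255 genes tested were called higher and 12.7% were called lower. The p21 ON and p21 OFF values did not overlap in 1 gene that was higher and 5 that were lower, against 19.1% and 21.3% of all genes tested. The median log2 fold change of the 10 genes was -0.14, and that of all genes tested was 0.0056. With 3 libraries against 3 the exact permutation test of a single gene cannot give a p below 0.1. The values are totals over a culture, in which fewer cells of a cycle phase and less RNA per cell cannot be told apart.

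**Figure D1:**
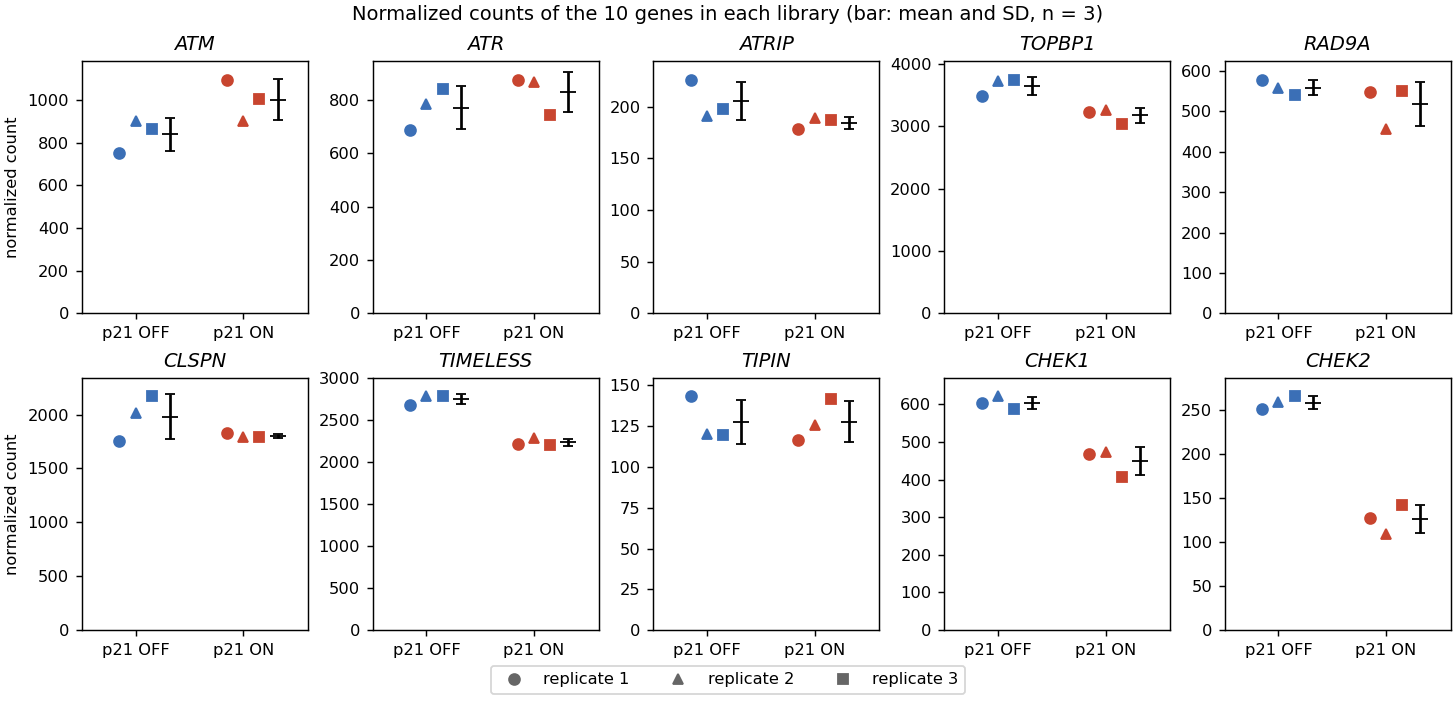
Normalized counts of the 10 genes in each library, p21 OFF in blue and p21 ON in red, with a symbol for each replicate number and a bar for the mean and SD (n = 3); each panel starts at 0. The CHEK2 values lie between 251 and 265 in p21 OFF and between 110 and 142 in p21 ON, whereas the TIPIN values share 1 range.

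The kinase genes downstream changed most. CHEK2 (chr22:29083731-29137808 in hg19, minus strand, 15 exons in the canonical transcript) had normalized counts of 251.2, 258.6 and 265.4 in p21 OFF and 126.9, 109.7 and 141.6 in p21 ON. Every p21 ON library was below every p21 OFF library. The mean fell by 51.2%, from 258 ± 7.09 to 126 ± 16 (SD, n = 3). The log2 fold change was -1.04 (SE 0.11, 95% interval -1.27 to -0.81, limma adjusted p = 1.7e-06). Between 90 and 359 reads stood behind each value. Replicates spread by 2.74% of the mean in p21 OFF and 12.7% in p21 ON, where counting alone gives 10.5% in the library with fewest reads. CHEK2 has 7 annotated pseudogenes named for it, and 7.5% of the 51-base windows of its canonical transcript (14.9% in its 3′ part) occur elsewhere in the genome, so reads there could be lost or split by the counting.

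CHEK1 (chr11:125495058-125527042, plus strand, 13 exons) stood at 602.8, 621.0 and 587.6 normalized counts in p21 OFF and at 469.2, 472.8 and 405.8 in p21 ON. The groups did not overlap, and p21 ON replicate 3 was the lowest. The mean fell by 25.6%, from 604 ± 16.7 to 449 ± 37.7 (SD, n = 3), with a log2 fold change of -0.43 (SE 0.080, limma adjusted p = 0.000965). None of its 51-base windows occurred elsewhere. A lncRNA on the opposite strand covers 18.2% of the canonical transcript, and the strand setting of the authors' counting is not stated, so their reads cannot be told apart here. STT3A, which shares 1.3% of the transcript on the same strand, had a log2 fold change of -0.06 and was not called.

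Among the fork protection genes TIMELESS was called lower, and TIPIN and CLSPN were not called. The ratio of TIMELESS to TIPIN overlapped between the groups, as given below, so a difference between these genes was not shown. TIMELESS (chr12:56810147-56843210, minus strand, 29 exons), which couples the helicase to the polymerases, had 2683.8, 2785.5 and 2785.1 normalized counts in p21 OFF and 2216.5, 2287.0 and 2212.2 in p21 ON. These were the tightest replicates of the 10 genes over both groups, at 2.13% and 1.88% of the mean, and the groups stood clear of each other. The mean fell by 18.6%, a log2 fold change of -0.30 (SE 0.057, limma adjusted p = 0.00131).

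TIPIN (chr15:66628529-66649023, minus strand, 8 exons), the obligate partner of TIMELESS, had 143.2, 120.3 and 119.7 normalized counts in p21 OFF and 116.4, 125.5 and 141.6 in p21 ON. The groups overlapped throughout, and the means were 127.7 ± 13.4 and 127.8 ± 12.7 (SD, n = 3). The log2 fold change was 0.0014 with a 95% interval of -0.26 to 0.26. Its sign turned with TMM scaling, and when replicate 2 or 3 of p21 OFF, or replicate 3 of p21 ON, was left out. Without p21 OFF replicate 1, its highest p21 OFF value, the log2 fold change was 0.0856 (limma adjusted p = 0.693). With the length trend taken out it was 0.0925 (limma adjusted p = 0.601). TIPIN rested on 100 to 162 reads a library, and 8.6% of its 51-base windows occur elsewhere in the genome.

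CLSPN (chr1:36197713-36235579, minus strand, 25 exons), the adaptor that presents CHK1 to ATR, had 1755.7, 2012.2 and 2167.9 normalized counts in p21 OFF and 1825.4, 1791.1 and 1793.1 in p21 ON. Replicates spread by 1.07% of the mean in p21 ON and by 10.5% in p21 OFF, where replicate 1 lay below all p21 ON libraries. The log2 fold change was -0.13 (SE 0.071, limma adjusted p = 0.203), so the gene was not called. Without p21 OFF replicate 1 it was -0.21 (adjusted p = 0.0063), and with the length trend taken out of each library it was -0.26 (adjusted p = 0.000997), both called lower.

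Of the sensors and activators, TOPBP1 (chr3:133319082-133380785, minus strand, 28 exons) had 3482.6, 3715.1 and 3742.4 normalized counts in p21 OFF and 3225.9, 3258.2 and 3029.4 in p21 ON. All p21 ON values lay below all p21 OFF values. The mean fell by 13.0%, from 3647 ± 143 to 3171 ± 124 (SD, n = 3), with a log2 fold change of -0.20 (SE 0.059, limma adjusted p = 0.0205). The call was lost when the counts were scaled by library size alone (-0.16, adjusted p = 0.0579), and also when 1 library was left out, namely p21 OFF replicate 2 (adjusted p = 0.0717) or 3 (0.0666), or p21 ON replicate 1 (0.0657) or 3 (0.0993).

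RAD9A (chr11:67159457-67165881, plus strand, 11 exons) had 577.7, 557.7 and 539.6 normalized counts in p21 OFF and 548.3, 455.7 and 549.2 in p21 ON. p21 ON replicate 2 was low, and the other p21 ON values lay among those of p21 OFF. The log2 fold change was -0.11 (95% interval -0.29 to 0.06, limma adjusted p = 0.342), and -0.02 without p21 ON replicate 2. PPP1CA, the gene of a phosphatase catalytic subunit on the opposite strand, shares 11% of the RAD9A transcript. It was called lower itself, at -0.19 (adjusted p = 0.0327), and its part in the RAD9A counts was not tested.

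ATRIP (chr3:48488141-48509044, plus strand, 13 exons) had 226.1, 191.4 and 198.1 normalized counts in p21 OFF and 178.1, 188.9 and 187.2 in p21 ON. The groups did not overlap, but by a margin of 191.4 against 188.9. The log2 fold change was -0.15 (95% interval -0.36 to 0.07, limma adjusted p = 0.308), and the gene was not called. Without p21 OFF replicate 1 it was -0.08 (adjusted p = 0.67). TREX1, an exonuclease gene on the same strand, covers 31.6% of the canonical ATRIP transcript, so that part of the ATRIP count depends on how the authors treated reads that fall on both genes. TREX1 was at 0.18 (adjusted p = 0.17), not called.

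ATR (chr3:142168077-142297575, minus strand, 47 exons) had 685.7, 785.8 and 841.9 normalized counts in p21 OFF and 875.4, 868.8 and 745.0 in p21 ON. The groups overlapped, with p21 OFF replicate 1 lowest and p21 ON replicate 3 next. The log2 fold change was 0.11 (95% interval -0.07 to 0.29, limma adjusted p = 0.383). It was 0.02 without p21 OFF replicate 1 and turned to -0.01 with the length trend taken out, so these libraries give no direction for ATR.

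ATM (chr11:108093794-108239829, plus strand, 63 exons) was the gene called higher. It had 751.0, 903.0 and 864.1 normalized counts in p21 OFF and 1095.5, 904.1 and 1004.4 in p21 ON. The groups did not overlap, but p21 ON replicate 2 exceeded p21 OFF replicate 2 by about 1 normalized count. The mean was 19.3% higher, 839 ± 78.9 against 1001 ± 95.7 (SD, n = 3), with a log2 fold change of 0.25 (SE 0.083, limma adjusted p = 0.0344). The call was lost without p21 OFF replicate 1 (0.18, adjusted p = 0.0694), without p21 ON replicate 1 (0.19, adjusted p = 0.203) and without p21 ON replicate 3 (0.25, adjusted p = 0.11). With the length trend taken out the log2 fold change was 0.05 (adjusted p = 0.567).

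**Figure D2:**
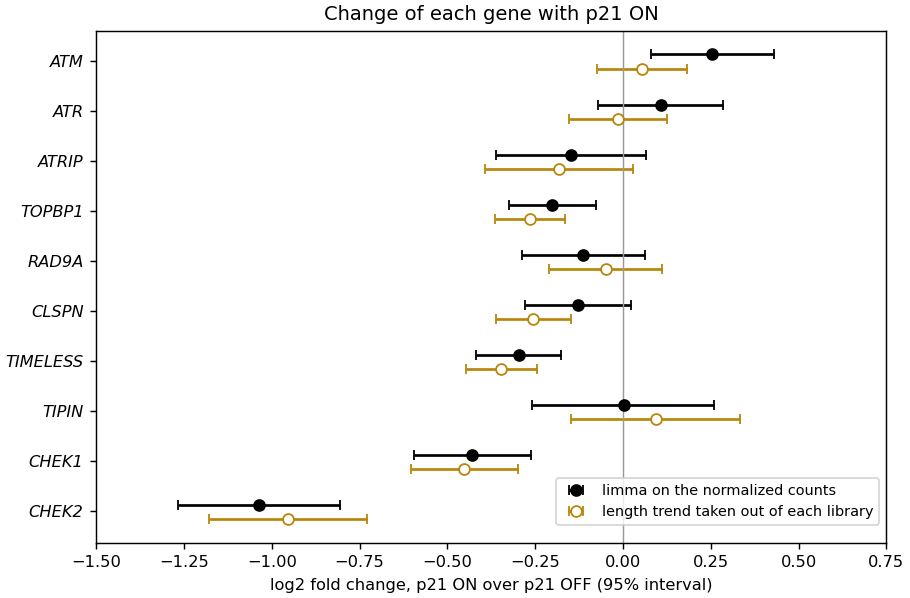
Log2 fold change (p21 ON over p21 OFF) of each of the 10 genes with its 95% interval from limma, as measured (filled black) and with the length trend taken out of each library (open gold); the line marks no change. The whole intervals of CHEK2, CHEK1, TIMELESS and TOPBP1 lie below 0 with both, CLSPN moves from -0.13 to -0.26 and ATM from 0.25 to 0.05.

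Transcript length was set beside these values because the calls over all genes followed it. Of tested genes with a canonical transcript under 2 kb, 2.69% were called higher and 25.7% lower, with a median log2 fold change of -0.13. From 2 to 4 kb the median was -0.02 and from 4 to 8 kb 0.06. At 8 kb or more 27.5% were called higher and 4.15% lower, with a median of 0.17. ATM and ATR lay within 0.1 of the median for their length, whereas CLSPN lay below it. CHEK1, TIMELESS, TOPBP1 and ATRIP, all between 4 and 8 kb, lay below a median that was above 0. CHEK2, at 1.84 kb, lay among the genes that were most often called lower, and its log2 fold change was -0.96 with the trend taken out (limma adjusted p = 8.8e-07). Taking the trend out left 0 of the 10 genes higher and 5 lower, against 1328 higher and 1627 lower of all 12558 genes in that fit. This setting was chosen after the values were seen.

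**Figure D3:**
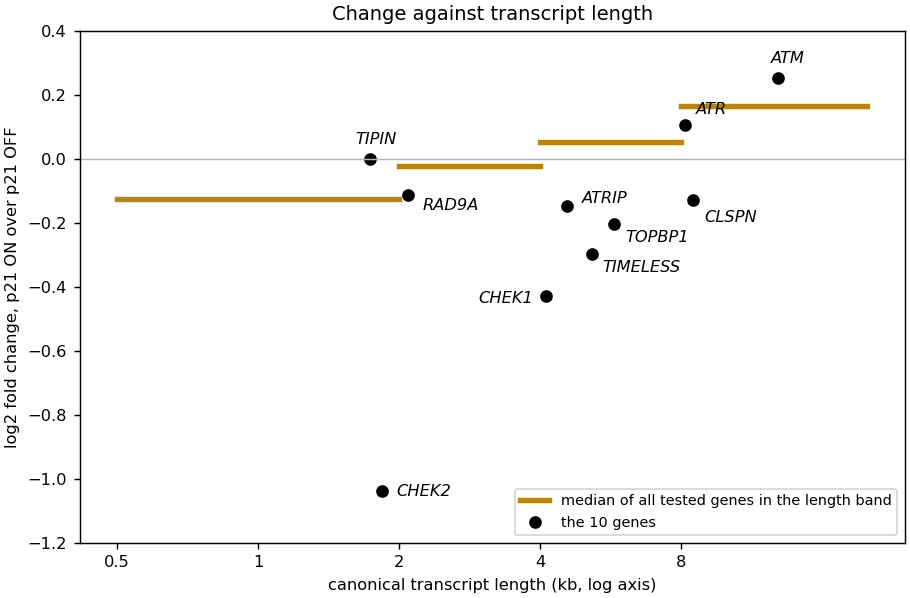
Log2 fold change (p21 ON over p21 OFF) against canonical transcript length in kb on a log axis, for the 10 genes (black points) and as the median of all tested genes in each of 4 length bands (gold bars, drawn from 0.5 kb and to 20 kb at the ends). The bars rise from -0.13 to 0.17, ATM and ATR lie near the last bar, and CHEK2 lies at -1.04, far below the first.

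Within each library the genes that act as partners were set against each other, as the difference of their log2 normalized counts. Partners differ in transcript length, so the length trend can enter these ratios, and the ratios were not computed with it taken out. CHEK1 has 4.13 kb, CLSPN 8.51 kb, CHEK2 1.84 kb, TIMELESS 5.16 kb and TIPIN 1.73 kb. With the trend taken out, the log2 fold changes were -0.45, -0.26, -0.96, -0.35 and 0.09 in the same order. The CHEK1 to CHEK2 ratio (log2) was 1.260, 1.261 and 1.144 in p21 OFF and 1.878, 2.098 and 1.512 in p21 ON. All p21 ON libraries were above all p21 OFF libraries, and the linear ratio moved from 2.33 to 3.55 (difference 0.61 log2, exact two-sided permutation p = 0.1, adjusted over 5 ratios p = 0.25). The CHEK1 to CLSPN ratio went from -1.541, -1.695 and -1.882 to -1.958, -1.919 and -2.141, again without overlap (difference -0.30, exact permutation p = 0.1, adjusted p = 0.25).

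The other ratios overlapped between the groups. TIMELESS to TIPIN was 4.219, 4.522 and 4.528 in p21 OFF and 4.239, 4.177 and 3.956 in p21 ON (difference -0.30, exact permutation p = 0.2, adjusted p = 0.3). The overlap came from p21 OFF replicate 1, which lay just below p21 ON replicate 1. ATR to ATRIP differed by 0.25 (exact permutation p = 0.3), and by 0.10 without p21 OFF replicate 1. ATM to ATR differed by 0.15 (exact permutation p = 0.3), with 0.07 to 0.25 when 1 library was left out, the lowest without p21 ON replicate 3 and the highest without replicate 2 of that group. As 0.1 is the smallest p this design allows, none of the 5 ratios could pass a threshold of 0.05.

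**Figure D4:**
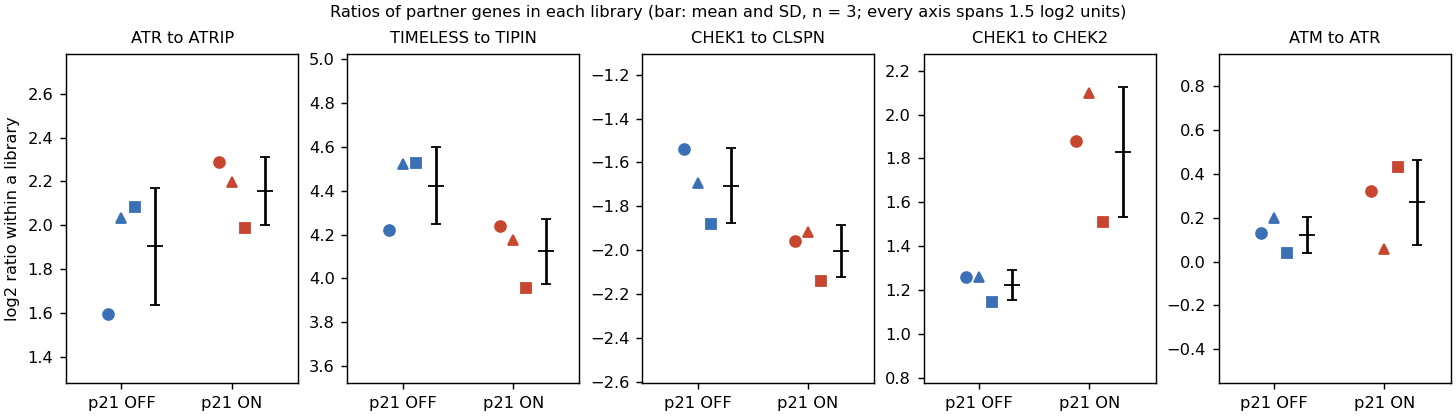
Log2 ratio of 5 pairs of genes within each library, p21 OFF in blue and p21 ON in red, with a symbol for each replicate number and the mean and SD beside them (n = 3); every axis spans 1.5 log2 units. CHEK1 to CHEK2 is higher in every p21 ON library (1.512 to 2.098, against 1.144 to 1.261), and CHEK1 to CLSPN is lower in every one.

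Levels can be compared between the genes only per length of transcript. Per kb of the longest annotated transcript, in p21 OFF, TOPBP1 (593 ± 23.2 normalized counts per kb, SD, n = 3) and TIMELESS (533 ± 11.4) were highest and their ranges did not meet. RAD9A (268) came next, then CLSPN (232) with a range of 206 to 255 just below that of RAD9A, which began at 259. CHEK1 followed at 146. CHEK2 (101) and ATR (94.5) had overlapping ranges. TIPIN (73.9, from 69.3), ATM (63.9, up to 68.8) and ATRIP (44.8) were lowest. TREX1 covers 31.6% of the ATRIP transcript, and 7.5% of the CHEK2 and 8.6% of the TIPIN windows occur elsewhere. Reads there may be lost, and the effect on the places of these genes was not tested. CHEK2 moved from the sixth place in p21 OFF to the ninth in p21 ON, at 49.2 ± 6.24 per kb. Its place changed in the same way per kb of all annotated exons joined. On that scale CLSPN (206) stood above RAD9A (134), and ATR and ATM were last in p21 OFF at 28.3 and 21.4, since their joined exons span 27234 and 39184 bases against 8158 and 13130 in the longest transcript.

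On the study's lists of cell cycle genes, CLSPN, CHEK1, TOPBP1 and TIPIN are G1/S genes and CHEK2 is a G2/M gene. All 5 stand on the low stringency lists and CLSPN also on the high stringency list, while ATM, ATR, ATRIP, RAD9A and TIMELESS are on none. CHEK2, with the largest fall of the 10 genes, is the one on the G2/M list. Of the G1/S genes CHEK1 and TOPBP1 were called lower, and CLSPN and TIPIN were not called. TIMELESS was called lower and is on no list. The E2F letters shown above occur in TOPBP1, called lower, and in CLSPN and TIPIN, and these numbers are too small for a comparison.

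For CHEK2 and ATM, the lowest and the highest log2 fold change, the genes with the most similar pattern over the 6 libraries were found by the root mean square difference of centred log2 values, among 10441 genes with a mean of at least 100. Nearest to CHEK2 were CENPJ, a centriole gene (0.071), MYBL2, a transcription factor of the cell cycle (0.1), and GINS4, a subunit of the replicative helicase (0.103). CENPJ went from 560 to 291 normalized counts, MYBL2 from 3761 to 1881 and GINS4 from 520.1 to 237. Nearest to ATM were SMG1, another kinase of its family (0.029), TMEM63A (0.032) and PAG1 (0.035). With the length trend taken out, the log2 fold change of SMG1 went from 0.25 to 0.01 (limma adjusted p = 0.909) and that of PAG1 from 0.29 to 0.12 (adjusted p = 0.395). TMEM63A went from 0.21 to 0.19 (adjusted p = 0.034), and CENPJ (-0.99), MYBL2 (-0.97) and GINS4 (-1.15) stayed called lower. These are descriptions over 6 libraries, which share the difference between the groups.

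The wider checkpoint was read from a list of 41 other genes in 9 roles, of which 40 passed the filter on low values and RAD9B did not. Of these 2 were called higher, 12 were called lower and 26 were not called, with a median log2 fold change of -0.08. Leaving out p21 ON replicate 1 gave 1 higher and 10 lower, and taking out the length trend gave 2 higher and 15 lower. All genes tested gave 10.5% higher and 12.7% lower with all libraries, as above. Leaving out p21 ON replicate 1 gave 695 and 887 of 13255 genes, and taking out the length trend gave 1328 and 1627 of 12558.

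Calls were most frequent in the role listed as targets of CHK1 and CHK2, where 5 of 7 genes were lower and the median was -0.41. Whether each gene of the role, PKMYT1 among them, is such a target was not tested. CDC25C, the phosphatase that releases mitosis, went from 404 ± 26.8 to 138 ± 13.9 normalized counts (log2 fold change -1.55, limma adjusted p = 1.74e-09). PKMYT1, a kinase that holds CDK1 back, went from 611 ± 34.9 to 235 ± 2.42 (-1.37, adjusted p = 4.3e-10), and PAQR4 on the opposite strand shares 16.3% of its transcript. CDC25B went from 2881 ± 53.4 to 1602 ± 65.5 (-0.85, adjusted p = 4.83e-09). The other 2, CDC25A (-0.41) and WEE1 (-0.31), are outside the naming rule and were named after their values were seen. The list thus holds both activators and inhibitors of the mitotic kinase among the genes that fell. The Tousled-like kinases TLK1 (-0.01) and TLK2 (-0.04) were not called.

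In the ATM branch at breaks, 1 of 6 genes was higher and 2 were lower. H2AX, the histone variant phosphorylated around breaks, went from 3115 ± 91.9 to 1802 ± 166 normalized counts (log2 fold change -0.79, limma adjusted p = 8.01e-08). RNF168, a ubiquitin ligase that acts after ATM, went from 1237 ± 33.2 to 1471 ± 46.8 (0.25, adjusted p = 0.00776). The second gene called lower was BRCA1 (-0.55), also named after its value was seen. MRE11, the nuclease of the MRN complex, was the 1 gene called lower of 5 in its role, from 556 ± 6.27 to 462 ± 12.5 (-0.27, adjusted p = 0.0135), while RAD50 (0.13) and NBN (0.05) were not called. Another annotated protein-coding gene on the same strand covers 91% of the canonical RAD50 transcript, and its part in the RAD50 count was not tested. Leaving out p21 ON replicate 1 ended the calls of RNF168 (adjusted p = 0.0573) and MRE11 (0.0502), and leaving out p21 ON replicate 3 ended that of MRE11 (0.0566).

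Around ATR, RHNO1, which binds the 9-1-1 clamp and TOPBP1, went from 824 ± 46.9 to 599 ± 32.2 normalized counts (log2 fold change -0.46, limma adjusted p = 0.00023). The clamp subunits RAD1 (-0.17) and HUS1 (-0.16) and the loader subunit RAD17 (-0.11) were not called. RPA3, the smallest subunit of the single-strand binding protein, went from 176 ± 40.9 to 119.9 ± 6.39 (-0.53, adjusted p = 0.0104), with 224 in p21 OFF replicate 1 against 152 and 153 in the other p21 OFF libraries. Without p21 OFF replicate 1 the log2 fold change was -0.35 (adjusted p = 0.0435), and the call was lost when p21 ON replicate 1 or 3 was left out (adjusted p = 0.0517 and 0.0514). RPA1 (-0.11), RPA2 (-0.03) and the other ATR activator, ETAA1 (0.0054), were not called. Of the replisome partners DDX11, a helicase that binds TIMELESS, was lower (-0.24, adjusted p = 0.0408) although its groups overlapped and leaving out replicate 2 of p21 OFF, or replicate 2 or 3 of p21 ON, ended the call (adjusted p = 0.126, 0.189 and 0.108), and WDHD1 (-0.07) was not called.

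PRKDC, the third kinase of the family that answers breaks, went from 6648 ± 574 to 8874 ± 422 normalized counts (log2 fold change 0.42, limma adjusted p = 0.000253). With the length trend taken out it was 0.21 (adjusted p = 0.00184), so its call held where that of ATM did not. The chaperone genes TELO2 (-0.18), TTI1 (0.01) and TTI2 (0.13), which stabilize these kinases, were not called. MAK16 on the opposite strand shares 33.7% of the TTI2 transcript. None of the 4 fork remodellers (SMARCAL1, ZRANB3, HLTF and RADX) was called by limma, with log2 fold changes of -0.09 to 0.11, and 0 of the 4 had an unadjusted p under 0.05. PPP1CC, a phosphatase catalytic subunit, was the 1 gene called among 4 phosphatases and deubiquitinases (-0.35, adjusted p = 0.00105).

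**Figure D5:**
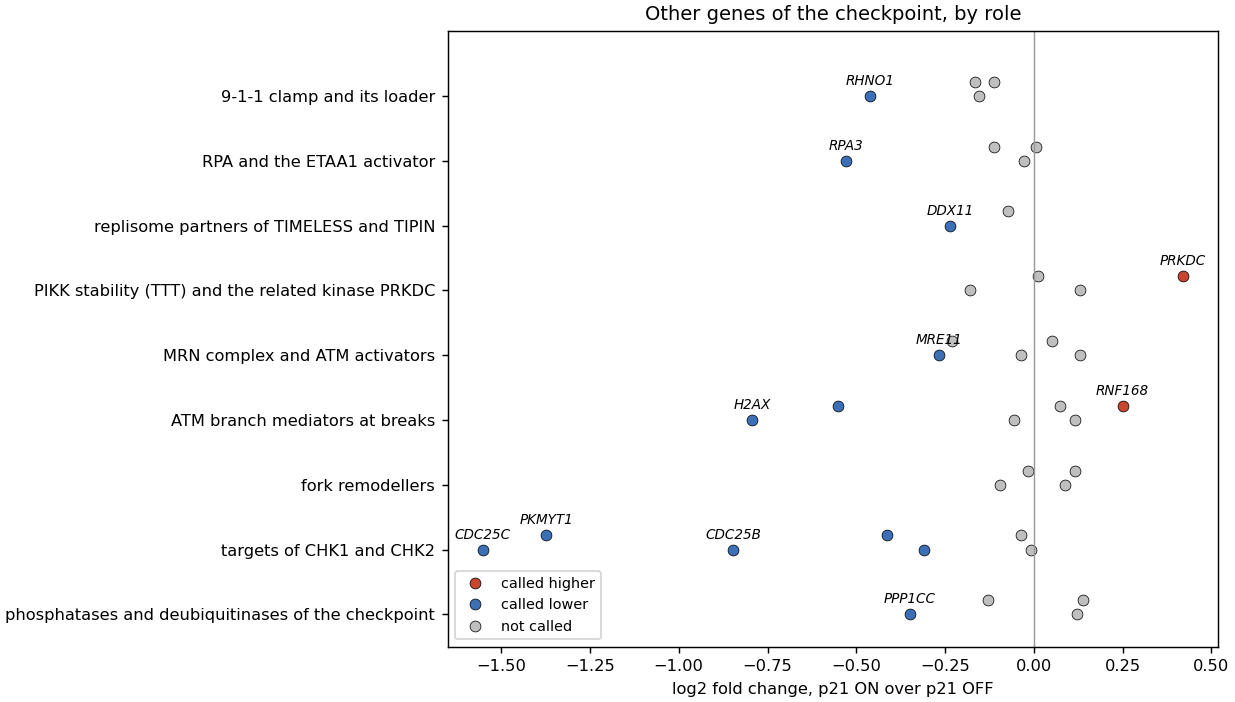
Log2 fold change (p21 ON over p21 OFF) of the 40 tested genes of the wider checkpoint, 1 row for each role, with genes called higher in red, called lower in blue and not called in grey; points in a row are set at 2 heights for legibility. The role listed as targets of CHK1 and CHK2 reaches from -1.55 to -0.01, and PRKDC lies highest at 0.42.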

How the data were processed

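SaOS-2 RNA in 6 libraries was measured by RNA-seq (TruSeq stranded mRNA kit, 51-cycle single-end reads, 1 HiSeq2500 lane). Per the submitters' processing notes and the study's methods, the authors mapped reads to hg19 with STAR, counted them with HTSeq and divided the counts by DESeq2 size factors. Their versions and the strand setting are not given in the sources used here. The deposited values are thus a signal, normalized counts per gene. In every library 100% of them were whole multiples of 1 step (tolerance 0.01), which returned 12795490 to 21975045 reads per library, and counting error follows from these.

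limma 3.58.1 (trend, R 4.3.3) was fitted to log2 values after a pseudocount of 1 was added. It took in the 13255 genes whose mean normalized count reached 10. p-values were adjusted over all of these by Benjamini-Hochberg, and 0.05 was the threshold. A fold change is on that scale and understates the change of low genes. The named genes are all 10 genes, CDKN1A, in the list of 41 the 4 called genes with the largest change each way and any called gene in a role of 5 or fewer members, and the 3 genes most like CHEK2 and ATM. Other genes of the list are outside this rule and were named after their values were seen, as neighbours in a role. Alternatives were edgeR 4.0.16 with TMM and DESeq2 1.42.0 on whole reads, library-size or TMM scaling with limma, pseudocounts of 10 and 0.1, no filter, at least 10 reads in every library, a replicate block, and each library left out. Taking out a length trend (lowess on log2 canonical length, for the 94.7% of tested genes with a length) and testing the genes with a length alone were added after seeing the data. The limma, edgeR and DESeq2 fits were tested on simulated data with changes of 1 log2 unit in either direction and no length trend. Smaller changes and the taking out of a length trend were not simulated. Genes and lists were chosen with earlier results of these data known.

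Gene positions, exons and overlaps come from the GENCODE annotation on the hg19 assembly, and promoters from RefSeq on GRCh38.p14. No coordinates were converted between the builds.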

Additional observations from a re-analysis of the deposited data

How the results depend on the processing

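The CHEK2, CHEK1 and TIMELESS calls held under every alternative, with log2 fold changes of -1.05 to -0.96, -0.45 to -0.39 and -0.35 to -0.25 with all libraries. Scaling by library size alone gave 4 genes of the wider checkpoint called higher in place of 2, and TOPBP1 at -0.16 (adjusted p = 0.0579, not called). It called 2034 genes higher and 1194 lower, so the share of calls that were higher went from 45.3% to 63%. TIPIN turned to -0.0083 with TMM scaling. With the length trend taken out of each library, 0 of the 10 genes were called higher, ATM was 0.0534, ATR turned to -0.0136 and CLSPN was called lower at -0.26. Counts over all genes were 1118 to 2034 higher and 1194 to 1812 lower with all libraries.

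Leaving out 1 library at a time gave 695 to 1486 genes higher and 887 to 1660 lower, with the lowest counts without p21 ON replicate 1 and 739 and 1076 without p21 ON replicate 3. It gave 0 to 1 of the 10 genes higher and 3 to 5 lower, and 1 to 2 of the wider list higher and 9 to 14 lower. The log2 fold changes were 0.18 to 0.33 for ATM, -0.23 to -0.17 for TOPBP1, -0.21 to -0.0599 for CLSPN, -0.074 to 0.0856 for TIPIN, -1.12 to -0.94 for CHEK2, -0.47 to -0.36 for CHEK1 and -0.32 to -0.29 for TIMELESS. TIPIN was -0.04 without p21 OFF replicate 2 (-0.039) or replicate 3 (-0.0423), and -0.074 without p21 ON replicate 3. DDX11 was not called by DESeq2 (adjusted p = 0.0563), after library-size scaling (0.0903) or without any 1 of 3 libraries. RNF168, RPA3 and MRE11 each lost the call without p21 ON replicate 1 (adjusted p = 0.0573, 0.0517 and 0.0502).

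Groups share replicate numbers, but the labels do not say whether same-numbered libraries were paired. Their deviations from the group means correlated at -0.0571, -0.0245 and -0.048, so no shared effect of the number was seen. With 3 libraries in a group this cannot settle whether they were pairs. The replicate block gave 1407 genes higher and 1513 lower and the same counts among the 10 genes, 1 higher and 4 lower. Between 90 and 5063 reads stood behind each value of the 10 genes, and CHEK2, TIPIN and ATRIP are limited most by counting.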
